A study of Mus musculus with 4 samples.

Results

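The genes described here are 10 markers of macrophages: *Adgre1*, *C1qa*, *C1qb*, *C1qc*, *Cd14*, *Cd163*, *Cd68*, *Csf1r*, *Mrc1* and *Itgam*. They were found by gene name among the 27251 genes (41174 probes) of an Agilent whole mouse genome array, where *Adgre1* is listed as Emr1 or Adgre1, and are read by 14 probes. The 4 dual-color arrays came from 2 experiments. In the first, colon RNA of male *Myh11CreErt2/Rspo3 fl/fl* mice (*Rspo3* KO) was set against that of *Myh11CreErt2/Rspo3+/+* littermates (control), all C57BL/6, 6 to 8 weeks old and taken 2 weeks after tamoxifen (4 mg per 25 g of bodyweight), with 1 mouse per channel, 2 pairs of mice and the dyes reversed between the pairs (n = 2). Cre was driven by *Myh11*, so the deletion was aimed at smooth muscle cells and myofibroblasts and not at macrophages, and both genotypes carried Cre and received tamoxifen. In the second, live ESA+ epithelial cells of *Axin2CreErt2/Rosa26-tdTomato* mice were sorted 24 h after tamoxifen into tdTomato+ (Axin2+) and tdTomato- (Axin2-) cells and pooled from 3 mice, also male, C57BL/6, 6 to 8 weeks old and given tamoxifen at 4 mg per 25 g. These 2 pools were hybridised on 2 arrays with the dyes exchanged, which is 1 replicate and allows no test.

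Macrophages of the colon lie mostly in the lamina propria below the epithelium and in the muscle layer, and are replenished from blood monocytes and in part maintained locally. Their growth and survival depend on the receptor Csf1r. They take up dying cells and bacterial products through scavenger, mannose and complement-related receptors, which is the function of several of the markers described here. No marker is exclusive to macrophages: Itgam and Cd14 are also found on neutrophils and monocytes, and Cd14 can be made by epithelial cells.

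The 3 C1q genes encode the chains of 1 protein, the recognition molecule of the classical complement pathway, and lie beside each other on chromosome 4. On GRCm38.p6 they span 18719 bases together. Their ratios are described further on, and the sequences that read *C1qa* and *C1qb* are shown. The *C1qa* probe lies at chr4:136452409-136452468 and the *C1qb* probe at chr4:136436578-136436637 on mm9, both on the minus strand and 60 bases long. The longest run of letters shared between them on either strand was 6 bases, and capitals mark these runs.
C1qa: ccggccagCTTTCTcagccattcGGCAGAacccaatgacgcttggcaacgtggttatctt
C1qb: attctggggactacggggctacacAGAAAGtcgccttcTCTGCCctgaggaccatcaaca

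Promoters of 6 of the 10 genes were taken from the RefSeq table used here (GRCm38.p6, 250 bases before to 50 after the start of the gene): *Mrc1*, *C1qb*, *C1qc*, *Cd163*, *Itgam* and *Cd68*. *Adgre1*, *C1qa*, *Cd14* and *Csf1r* were not matched. PU.1, the product of *Spi1*, is a transcription factor that macrophages need, and it binds a purine-rich element of the letters GAGGAA. Those letters, on either strand (TTCCTC on the other), were present in 5 of the 6 promoters, with *Cd163* the exception, and in 28.3% of all 32851 promoters of the table. The longer run GAGGAAGT, which contains the first, was present in 1 of the 6, that of *C1qc*, and in 3.2% of all promoters. A match of letters is a description and not a binding site. The promoters of *C1qb* and *C1qc*, the neighbouring chains, and of *Mrc1*, with 3 matches on the other strand, are shown with the matches in capitals. They lie at chr4:136886151-136886450 (minus strand), chr4:136892865-136893164 (minus strand) and chr2:14229164-14229463 (plus strand).
C1qb promoter: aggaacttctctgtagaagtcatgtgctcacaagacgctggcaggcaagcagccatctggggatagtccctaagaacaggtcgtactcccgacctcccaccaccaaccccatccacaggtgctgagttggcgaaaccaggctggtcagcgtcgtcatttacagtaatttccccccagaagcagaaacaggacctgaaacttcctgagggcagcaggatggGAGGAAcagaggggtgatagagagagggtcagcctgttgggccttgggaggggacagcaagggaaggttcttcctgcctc
C1qc promoter: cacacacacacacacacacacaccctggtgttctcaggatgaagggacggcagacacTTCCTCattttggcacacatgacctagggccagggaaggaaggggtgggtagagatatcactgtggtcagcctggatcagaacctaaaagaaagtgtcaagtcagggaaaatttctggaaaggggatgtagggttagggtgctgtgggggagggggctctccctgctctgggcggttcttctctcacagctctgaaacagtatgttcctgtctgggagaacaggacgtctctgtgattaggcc
Mrc1 promoter: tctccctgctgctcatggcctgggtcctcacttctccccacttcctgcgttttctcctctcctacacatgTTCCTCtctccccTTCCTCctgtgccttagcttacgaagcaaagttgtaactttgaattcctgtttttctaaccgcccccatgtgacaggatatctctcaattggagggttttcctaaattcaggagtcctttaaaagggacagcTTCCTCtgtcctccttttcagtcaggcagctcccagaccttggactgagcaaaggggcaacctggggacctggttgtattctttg

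The targeted gene gave no check of the labels. The brighter *Rspo3* probe had normalised intensities of 70.8 and 131 in the KO mice of pairs 1 and 2, and of 66.1 and 117 in their controls, and was well above background only in pair 2, where the log2 ratio was 0.17. The other probe had 68.5 and 78.9 against 74 and 81.5 and was not well above background in any of these channels. The loss of *Rspo3* was not seen on these arrays, and where the probes lie relative to the deleted part is not given in the sources used here. KO thus stands for the channel labelled as KO, and every direction rests on that label. The paper reports lower *Lgr5* by qPCR and reduced *Axin2* by in situ hybridisation in the KO colon. On these arrays *Lgr5* had log2 ratios of -1.275 and -2.614 (adjusted p = 0.1 in limma) and *Axin2* of -0.448 and -0.264. Both were lower in both pairs, and neither was called. Both arrays of an experiment lay on 1 slide and the experiments on separate slides. In the first experiment the ratios of all 15336 measured genes correlated between the pairs with r = 0.03 (across genes, which are not independent), and limma called 37 genes (0.241%), 20 higher and 17 lower.

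In the colon, RNA of the macrophage markers was well above background throughout. All 10 genes were well above background in all 4 channels, where the share over all 27251 genes was 53.5%. Of 30 other macrophage and monocyte genes, 27 were above background in all 4 channels. The signal over local background of the brightest probe of each gene ranged from 2.28 to 114. None of the member spots was saturated or an outlier. Markers of the other cells of the wall were present too, among them all 10 epithelial, all 8 fibroblast and all 8 smooth muscle markers. The summed intensity of the 10 macrophage markers was 19800 and 16400 in the KO mice of pairs 1 and 2, against 17700 and 14600 in their controls. Each KO mouse was above the control of its own pair, but the groups overlapped. Bright genes weigh most in these sums, and *Adgre1* alone had 4650 and 3700 in the KO mice against 2820 and 2340 in their controls. In whole tissue, a difference in the number of macrophages and one in the RNA per macrophage cannot be told apart.

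Most macrophage markers had slightly higher levels in the KO colon than in the control colon, but no gene of the list passed the test. None of the 10 reached limma's threshold of an adjusted p of 0.05, which 0.241% of all genes did. At an unadjusted p under 0.05 the list held 1 gene, *Adgre1*, where the share over all genes was 4.62%. In both pairs 7 of 10 genes were higher in the KO, where 20.3% of all genes were, 1 was lower in both, *Cd14*, and *C1qa* and *Cd163* went opposite ways. The median log2 ratio was 0.27 in pair 1 and 0.16 in pair 2, and the median of the means was 0.21, beside -0.01 over all genes. It was 0.112 with the background fitted on all spots. One gene, *Adgre1*, was past 1.5-fold and higher in both pairs, as were 1.85% of all genes. In terms of levels, both KO mice lay above both control mice for 5 of 10 genes (12.5% of all genes) and below both for 1 (15.6% of all genes). These counts describe a list whose genes share cells, and no test was made over them.

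**Figure D1:**
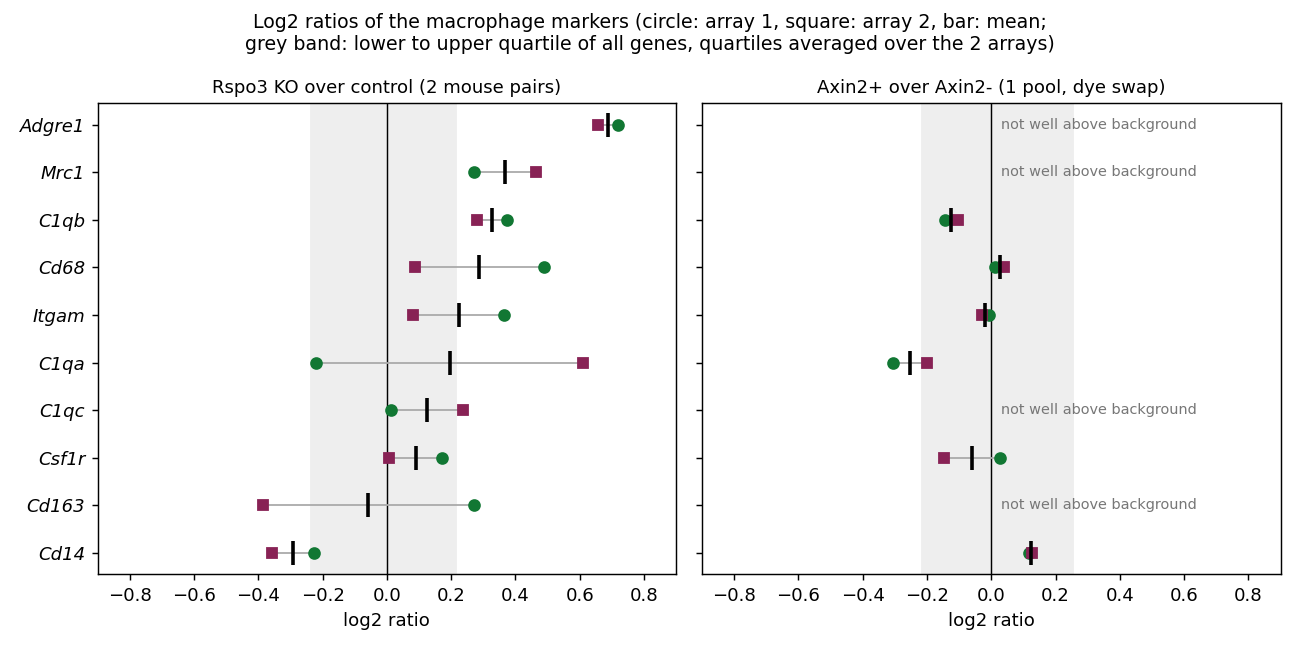
Log2 ratio of each macrophage marker in the *Rspo3* KO arrays (left, 2 mouse pairs) and the Axin2 arrays (right, 1 pair of pools measured with exchanged dyes), with circles for array 1, squares for array 2, bars for the mean and a grey band from the lower to the upper quartile of all genes. *Adgre1* sits furthest to the right at 0.72 and 0.66 in the KO arrays, *Cd14* lies at -0.23 and -0.36, and 4 genes have no ratio in the sorted cells.

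*Adgre1* (F4/80), the adhesion receptor by which mouse macrophages are most often recognised, had the largest ratio of the 10 genes. Its normalised intensity was 4650 and 3700 in the KO mice of pairs 1 and 2, and 2820 and 2340 in the control mice. Both KO mice thus lay above both controls, and the ratio was alike in the pairs, at 0.72 and 0.66 on the log2 scale. The mean was 0.69 ± 0.04 (SD, n = 2), with a standard error of 0.23 from limma and an adjusted p = 0.741, and was higher than the means of 98.6% of all genes. The adjusted p stayed above the threshold under every alternative with a limma test, from 0.0812 to 1. The other *Adgre1* probe was above background in 1 of 4 colon channels and gave -0.05 and 0.20.

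None of the 3 C1q chains passed the test, and no test compared their ratios with each other. *C1qb* had intensities of 768 and 660 in the KO mice and 592 and 544 in the controls, and *C1qc* of 5730 and 4400 against 5680 and 3740. *C1qa* had 1400 and 1390 in the KO mice, against 1630 and 911 in the controls. The groups were apart for *C1qb* and overlapped for *C1qc* and *C1qa*, and for *C1qa* the spread came from the control mice, whose log2 levels were 0.84 apart beside 0.01 between the KO mice. The log2 ratios were 0.38 and 0.28 for *C1qb*, 0.01 and 0.24 for *C1qc*, and -0.22 and 0.61 for *C1qa*. Their means of 0.33, 0.13 and 0.20 carried limma standard errors of 0.23, 0.23 and 0.27, and each had an adjusted p = 1.

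The uptake receptors had ratios on both sides of 0, and none passed the test. *Mrc1*, the mannose receptor, had intensities of 696 and 907 in the KO mice and 577 and 658 in the controls. Both KO mice were above both controls, with log2 ratios of 0.27 and 0.46 and a mean of 0.37 ± 0.14 (SD, n = 2). *Cd68*, a lysosomal glycoprotein of phagocytes, had 455 and 344 against 324 and 324, again without overlap, and log2 ratios of 0.49 and 0.09. *Cd163*, the receptor for haptoglobin-bound haemoglobin, had 2130 and 1140 against 1770 and 1480. In pair 1 the KO mouse was higher and in pair 2 it was lower, with log2 ratios of 0.27 and -0.39 and a mean of -0.06 ± 0.46 (SD, n = 2). All of these had an adjusted p = 1 in limma.

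*Csf1r*, the receptor for the macrophage growth factors Csf1 and Il34, had nearly equal intensities, with 807 and 759 in the KO mice and 716 and 754 in the controls. The KO mice lay above the controls by a narrow margin, with log2 ratios of 0.17 and 0.01. The other 2 *Csf1r* probes gave log2 ratios of 0.05 and 0.06 where the probe was above background in all 4 channels, and of 0.12 and 0.03 where it was above background in none. A list of Csf1r ligands and related genes, not all of them growth factors, had 6 measured genes. The ligands *Csf1* (log2 ratios of 0.18 and 0.58) and *Il34* (0.18 and 0.003) were the 2 with ratios above 0 in each pair. Of the rest, 1 was lower in both pairs, at -0.65 and -0.51, and 3 went opposite ways. Limma called none. The gene lower in both pairs was the 1 gene of the list with an unadjusted p under 0.05 in limma. The median of the means of this list was -0.10, and the means of the 2 ligands were 0.38 and 0.09.

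*Itgam* (Cd11b), the alpha chain of the complement receptor 3 integrin, had intensities of 243 and 131 in the KO mice and 188 and 123 in the controls, which overlapped. Its log2 ratios were 0.37 and 0.08, and 0.18 and 0.00 at its other probe, which was above background in 3 of 4 channels. *Cd14*, the co-receptor that hands lipopolysaccharide to Toll-like receptor 4, was the 1 gene lower in both pairs. It had 2910 and 2930 in the KO mice and 3410 and 3750 in the controls, which did not overlap. The log2 ratios were -0.23 and -0.36, with a mean of -0.29 ± 0.09 (SD, n = 2), a limma standard error of 0.23 and an adjusted p = 1.

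**Figure D2:**
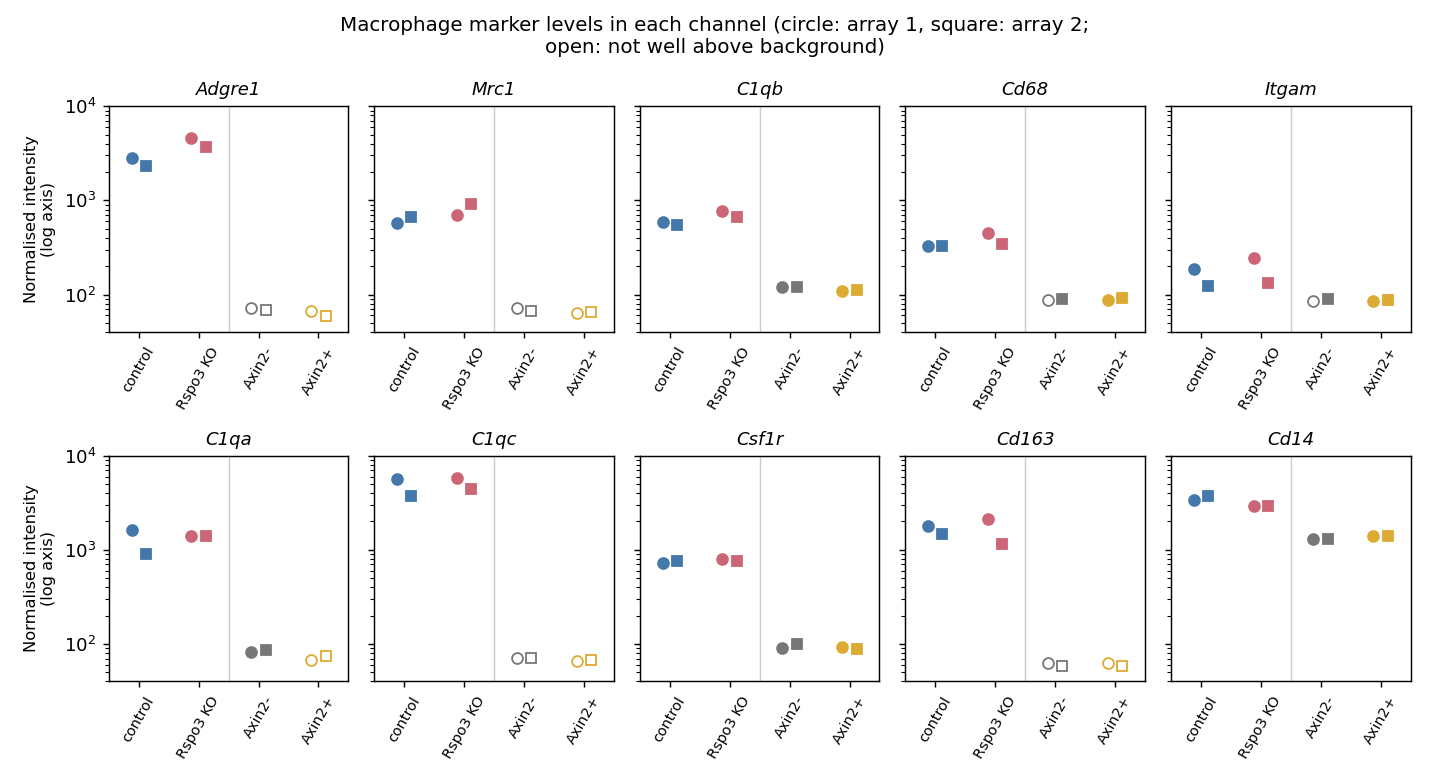
Normalised intensity of the brightest probe of each macrophage marker in each channel (log axis), with circles for array 1, squares for array 2 and open symbols where the probe was not well above background. Levels were normalised within each experiment. *Adgre1* is near 4650 and 3700 in the KO mice and 2820 and 2340 in the controls, and is not well above background in sorted cells, whereas *Cd14* stays at 1290 to 1410 there.

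The lists of related genes given here had medians of the means from 0.13 to 0.34, beside 0.21 for the markers. In some of them the means of single genes reached further than those of the markers (-0.29 to 0.69). They ran from -0.17 to 1.48 among the other scavenger and mannose receptors and from -0.41 to 0.77 among the complement partners. The gene at 1.48 went opposite ways in the pairs, at 3.04 and -0.09, as did the gene at -0.41, at 1.35 and -2.18. Of 26 measured genes among the other macrophage and monocyte genes, 14 were higher in both pairs, 1 was lower and 11 were opposite, with a median of 0.25, and limma called none. Of 15 complement partners of C1q, 11 were higher in both pairs, 1 was lower and 3 were opposite, with a median of 0.19. Of 11 other scavenger and mannose receptors, 4 were higher in both pairs, 1 was lower and 6 were opposite, and the medians of the pairs were 0.46 and -0.08. Of 11 partners of Cd14 and the Toll-like receptors, 4 were higher in both pairs, 1 was lower and 6 were opposite, and of 7 integrin partners and ligands of Itgam, 2 were higher in both pairs and 5 were opposite. Limma called none of these genes, at an adjusted p of 0.05. At an unadjusted p under 0.05 there were 1, 1, 2, 0 and 0 genes in these lists in the order given.

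Markers of lymphocytes and mast cells had larger ratios in the same animals. All 7 measured B cell markers were lower in both pairs, as were 23.9% of all genes, with a median of -1.05, and limma called 2 of them. *Ighm*, the heavy chain of IgM, had log2 ratios of -2.15 and -1.72 (adjusted p = 0.0253 in limma), and *Ms4a1* (CD20) of -2.75 and -2.27 (adjusted p = 0.013 in limma). The summed intensity of all 10 B cell markers was 2410 and 2270 in the KO mice and 10100 and 6110 in the controls. Of 7 T cell markers 6 were lower in both pairs, with a median of -0.52. Of 5 measured mast cell markers 4 were higher in both pairs and 1 was lower, with a median of 0.99. These counts and medians depend in part on the filter, which some genes passed through the brighter group alone. In pairs 1 and 2, 3 and 4 of 10 B cell markers were above background in the KO mice, beside 7 and 7 in the controls. For 9 T cell markers it was 5 and 5 against 7 and 8, and for 8 mast cell markers 5 and 6 against 3 and 3. *Cma1*, a mast cell chymase, had 1.84 and 1.86 (adjusted p = 0.0247 in limma). Each of these 3 calls held under 7 of 11 alternatives. Among the 7, the software's log ratios and the series' table of values hold the same values. Each was lost with the background fitted on all spots, with median centring, with no filter on dim probes and with the mean over a gene's probes. There *Ighm* (-1.94 to -1.75), *Ms4a1* (-2.51 to -1.49) and *Cma1* (1.23 to 1.94) kept their direction. With every probe tested on its own, the second probes of *Ms4a1* (-1.64, adjusted p = 0.0736 in limma) and *Cma1* (1.42, adjusted p = 0.0981 in limma) were not called.

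The medians were 0.30 for 8 fibroblast markers, 0.24 for 7 smooth muscle markers, 0.12 for 8 endothelial and for 6 enteric neuron and glia markers, 0.00 for 5 neutrophil, -0.28 for 4 dendritic cell and -0.04 for 5 epithelial markers. The fibroblast and smooth muscle medians were thus above the macrophage median of 0.21. Their part, and that of the lymphocyte and mast cell markers, in the macrophage values was not tested. Of the 10 epithelial markers 5 were left out as outlier spots on an array, so this list is covered only in part.

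**Figure D3:**
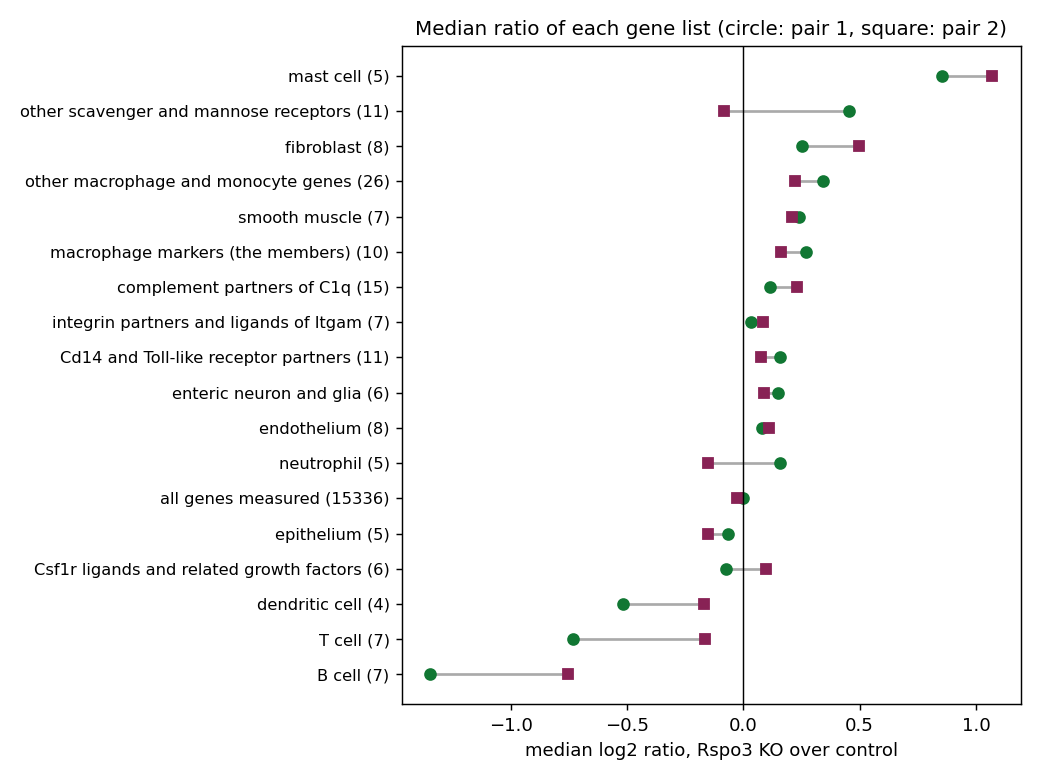
Median log2 ratio of each gene list in the *Rspo3* KO arrays, with circles for pair 1, squares for pair 2 and the number of measured genes in brackets. The B cell list lies lowest at -1.35 and -0.75, the mast cell list highest at 0.85 and 1.07, and the macrophage markers at 0.27 and 0.16.

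**Figure D4:**
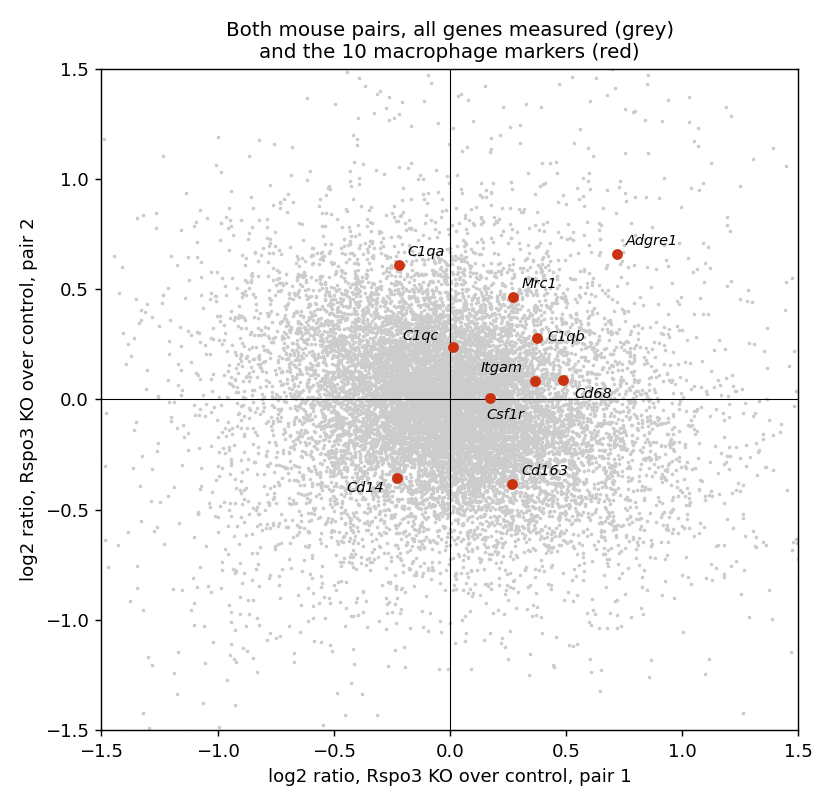
Log2 ratio of *Rspo3* KO over control in pair 1 (horizontal) and pair 2 (vertical) for all measured genes (grey) and the 10 macrophage markers (red). In all, 207 genes lie outside the axes, which end at 1.5. The 7 genes higher in both pairs lie up and to the right of the origin, *Cd14* lies down and to the left, *C1qa* up and to the left and *Cd163* down and to the right.

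In the sorted epithelial cells the macrophage markers other than *Cd14* had low signals over background. The share of the 10 above it in no channel, 40%, was near that over all genes. Of the 10 genes, 4 were not well above background in any of the 4 channels (*Adgre1*, *C1qc*, *Cd163* and *Mrc1*) and 3 were above it in all 4 (*C1qb*, *Cd14* and *Csf1r*), beside 37.8% and 51.4% of all genes. The signal over background of the 9 genes other than *Cd14* was 0.967 to 3.1 in these channels, whereas *Cd14* stood at 24.7 to 37.7. All 10 epithelial markers were above background in all 4 channels. The arrays of the 2 experiments lay on separate slides, so tissue and slide cannot be told apart, and the levels are given side by side without a test. *Adgre1* had intensities of 67.4 and 58.9 in Axin2+ cells and 71.6 and 68.6 in Axin2- cells. *C1qc* had 65.3 and 67.7 in Axin2+ cells and 71.1 and 70.4 in Axin2- cells, none of them well above background.

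Axin2+ and Axin2- cells gave close levels of the 6 markers that could be measured, most of them near background, where the offset of 50 draws ratios towards 0. None was past 1.5-fold and alike on both arrays, where 14.8% of all genes were, and the median log2 ratio of the 6 was -0.04. With the software's log ratios, which carry no such offset, the median was -0.19 and 2 were past 1.5-fold, *C1qa* lower and *Cd68* higher in Axin2+ cells, each dim and not well above background in at least 1 channel, so no fold is given. The median was -0.18 with error weights. *Cd14* had intensities of 1410 and 1410 in Axin2+ and of 1300 and 1290 in Axin2- cells, with log2 ratios of 0.12 and 0.13. *C1qb* had 108 and 113 against 119 and 121 (-0.14 and -0.10), *Csf1r* 91.8 and 89.2 against 90 and 98.8 (0.03 and -0.15), *Cd68* 87.9 and 91.7 against 87.1 and 89.1 (0.01 and 0.04), and *Itgam* 84.6 and 87 against 85 and 88.8 (-0.01 and -0.03). *C1qa* was well above background only in Axin2- cells, on both arrays, with intensities of 82.6 and 85.5 there and of 66.8 and 74.4 in Axin2+ cells. *Axin2* itself, whose reporter set the sort, had log2 ratios of 1.35 and 1.30.

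Of 16 measured genes among the other macrophage and monocyte genes, 13 were lower in Axin2+ cells on both arrays, where 41.7% of all genes were, 7 of them past 1.5-fold, where 6.94% of all genes were, and the median was -0.49. Of 7 complement partners all were lower on both arrays, 3 past 1.5-fold, and of 10 Cd14 and Toll-like receptor partners 9 were lower, 2 past 1.5-fold. The epithelial markers had a median of -0.27, and 7 of 10 were lower on each array. With 1 pair of pools these counts have no replicate check.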

How the data were processed

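Colon RNA of 2 pairs of mice and RNA of 2 pools of sorted epithelial cells were compared on 4 dual-color Agilent arrays. Labelling, hybridisation and scanning were done by the authors, who extracted spots with Agilent Feature Extraction (version 11.5.1.1 per the file headers). Per spot, the authors deposited the mean and the background intensity of both dyes and a log10 ratio (red over green) that the software had corrected, and its error. The error was used only to weight ratios, and the software's p-value, which the authors deposited too, was not used. The log10 ratios the authors deposited as the series' value table are the same (equal within 1e-08 at all 45018 spots of each array).

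Intensities were corrected with limma (version 3.58.1, R version 4.3.3) by normexp with an offset of 50, keeping spots with a background outlier (66 and 6 on the KO arrays) out of the fit, and normalised by loess within arrays. Outlier spots (124 to 510 of 43379 gene spots per array) and control spots were left out. Ratios were turned so that the KO or Axin2+ sample is on top. Levels per channel were made comparable by Aquantile within each experiment. The brightest probe stood for a gene, which was measured if each array of the experiment had 1 channel or more with that probe well above background. Between 53.1% and 60.3% of gene spots per channel were above background, and precision is limited by how many arrays there are.

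KO ratios were tested against 0 with limma (lmFit, eBayes, two-sided), with Benjamini-Hochberg adjustment over 15336 genes. The fit had 1 residual and 6.74 prior degrees of freedom, so the prior spread of all genes carries most of the test. The script was tested on simulated data. Probes were named through the RefSeq table of GRCm38.p6 by accession (28473), symbol (5057) or synonym (417), and 7227 kept the name in the files. Members and lists were chosen with earlier results of these data known. All probes of the members are given. Of other lists, only genes past the adjusted p and the ligands *Csf1* and *Il34* are named. Also named are *Rspo3* as the check of the labels, *Lgr5* and *Axin2* beside it, and *Axin2* as the sorted gene. RNA extraction and the tissue (distal colon or colon) are given differently in the labels and in the paper. The alternatives tried are given in the closing section.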

Additional observations from a re-analysis of the deposited data

How the results depend on the processing

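None of the 10 macrophage markers was called in the *Rspo3* KO arrays under any alternative with a limma test, whereas the number of genes called over the whole array depended on the processing. From 37, it became 72 with no background correction, 128 with an offset of 16, with the software's log ratios and with the series' table of values, 1 with the background fitted on all spots, 8 with median centring, 0 with no filter on dim probes and 5 with the mean over a gene's probes. It was 63 with 4 arrays in one limma fit and 283 with a dye term added, where the technical dye swap lends its spread to the test. With no filter, 1202 genes had an unadjusted p under 0.05 in limma. Of the 10 markers, 1 had such a p in the reported fit, 0 with median centring, with the software's log ratios and with the series' table, 3 with 4 arrays in one fit, and 1 in each other limma fit. The median log2 ratio of the markers was 0.209, and became 0.112 with the background fitted on all spots and 0.305 with median centring. Median centring moved the median of all genes to 0.546 in pair 1 and -0.516 in pair 2, and *Cd163* turned from -0.06 to 0.014 under it. With 1 pair left out, the median lay between 0.163 and 0.27. In the Axin2 arrays the number of markers past 1.5-fold was 0, but 2 with the software's log ratios and the series' table, and 1 with error weights. Their median of -0.039 became -0.191 with the software's log ratios and the series' table and -0.184 with error weights, and lay between -0.067 and 0.003 with 1 array left out, when the number past 1.5-fold stayed at 0. The cause was not tested. Of 140 KO values of single markers under the alternatives, 137 kept their direction. The other 3 were *Cd163* under median centring and, without pair 2, *C1qa* at -0.22 and *Cd163* at 0.27. Of 69 Axin2 values, 63 kept their direction, 38 moved by less than the spread between arrays and 31 by more. Both counts take the software's log ratios and the series' table, which hold the same values, as separate alternatives. The reported KO test is itself paired, since it sets the 2 ratios, each of a KO mouse over its control on the same array, against 0. Beyond that pairing, no paired analysis was possible because a block for the pair would leave no ratio to compare within it. Leaving out a KO array gives a value with no test.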
